A study of Papio anubis with 8 samples.

Results

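Astrocytes are the glial cells that clear glutamate from synapses, buffer ions and water and supply neurons with metabolites, and in the developing hippocampus they arise from radial glia, the progenitors whose processes span the wall of the brain. Radial glia are marked by the intermediate filaments nestin and vimentin and by transcription factors of the SOX, ID and HES families. Astrocytes that mature add GFAP, glutamate transporters, water channels and gap junctions, so that the 2 cell states share many genes. Late in gestation the hippocampus of a primate holds both, and some of these genes are also transcribed by oligodendrocyte precursors, vessels or meninges.

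A list of 40 such genes was looked up by gene symbol among the 37053 genes of the deposited table, and 38 had a row. GLUD1, which encodes glutamate dehydrogenase, and SOX2, a transcription factor of neural progenitors, had none and are not analysed here. The tissue was hippocampus of the olive baboon (Papio anubis), taken from fetuses at 0.9 of gestation in a study of maternal adiposity and leptin, and strand-specific libraries were made from its total RNA. The labels of the 8 libraries (AMB3 to AMB10) share tissue, organism and library kit and give neither a maternal group nor sex or fetus of origin, so no group was compared with another and each value stands for 1 library. Whole pieces of hippocampus were sequenced, so fewer cells of a type and less RNA per cell cannot be told apart in any value below.

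Library totals ran from 40404878 to 71648654 estimated counts. Levels are counts scaled to a common library size of 1000000 (CPM), with library sizes corrected by the trimmed mean of M-values. The spread of a gene is its log2 range, log2 CPM in the highest library minus that in the lowest. All 38 genes passed the filter on low counts that left 16874 genes, and the lowest count of any of them in any library was 161. Their 95% Poisson intervals, which cover counting error only, had a median half-width of 2.46% of the level and at most 15.8%. CPM depends on transcript length, so levels are compared between libraries and not between genes. Their position is that of the deposited table and was equal to the RefSeq table of the assembly Panubis1.0 for all 38.

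As a whole the 38 genes were low in AMB7 and high in AMB10. AMB7 was the lowest library of 23 of the 38 genes, against 15.1% of all tested genes, and among the 2 lowest libraries of 33, against 27.7%. It lay below the gene's own median in 37 of the 38, against 51.2% of all tested genes, and above it in SERPINE2 alone of the 38, against 48.8%. AMB10 was the highest library of 23, against 16.7% of all tested genes, and among the 2 highest of 31, against 29.9%. It lay above the median in 34, against 49.8%, and below it in GLUL, HOPX, SPARCL1 and SERPINE2, against 50.2%. It was the lowest library of 0 of the 38, against 15.9%. That AMB7 and AMB10 hold the extremes of astrocyte genes was known when these counts were made, so they describe how many genes follow the pattern.

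The other libraries lay between. AMB5 was the lowest library of 10 genes, against 17.0% of all tested genes, among them VIM, GJA1, AGT, LIFR and ID4. AMB3 was the highest of 6, namely VIM, GLUL, GJB6, ETNPPL, CBS and NDRG2, against 11.1% of all tested genes. AMB8 was the highest of 4, namely NES, SLC25A18, PPP1R3C and F3, against 12%, and the lowest of SPARCL1 and SERPINE2, against 12.3%. AMB9 was the lowest library of SLC4A4 and FAM107A, against 9.51% of all tested genes, and the highest of NCAN, against 8.93%. AMB4 was the lowest of HOPX, against 6.48%, and the highest of SPARCL1, against 7.3%, and AMB5 was the highest of SERPINE2, against 16.4%. The median over the 38 genes of log2 CPM minus the gene's own median was -0.49 in AMB7, -0.22 in AMB5, -0.16 in AMB9, -0.05 in AMB4, 0.08 in AMB6, 0.16 in AMB8, 0.19 in AMB3 and 0.40 in AMB10. The counts of the 38 genes made up 0.766% of all counts in AMB7 and 1.37% in AMB10.

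**Figure D1:**
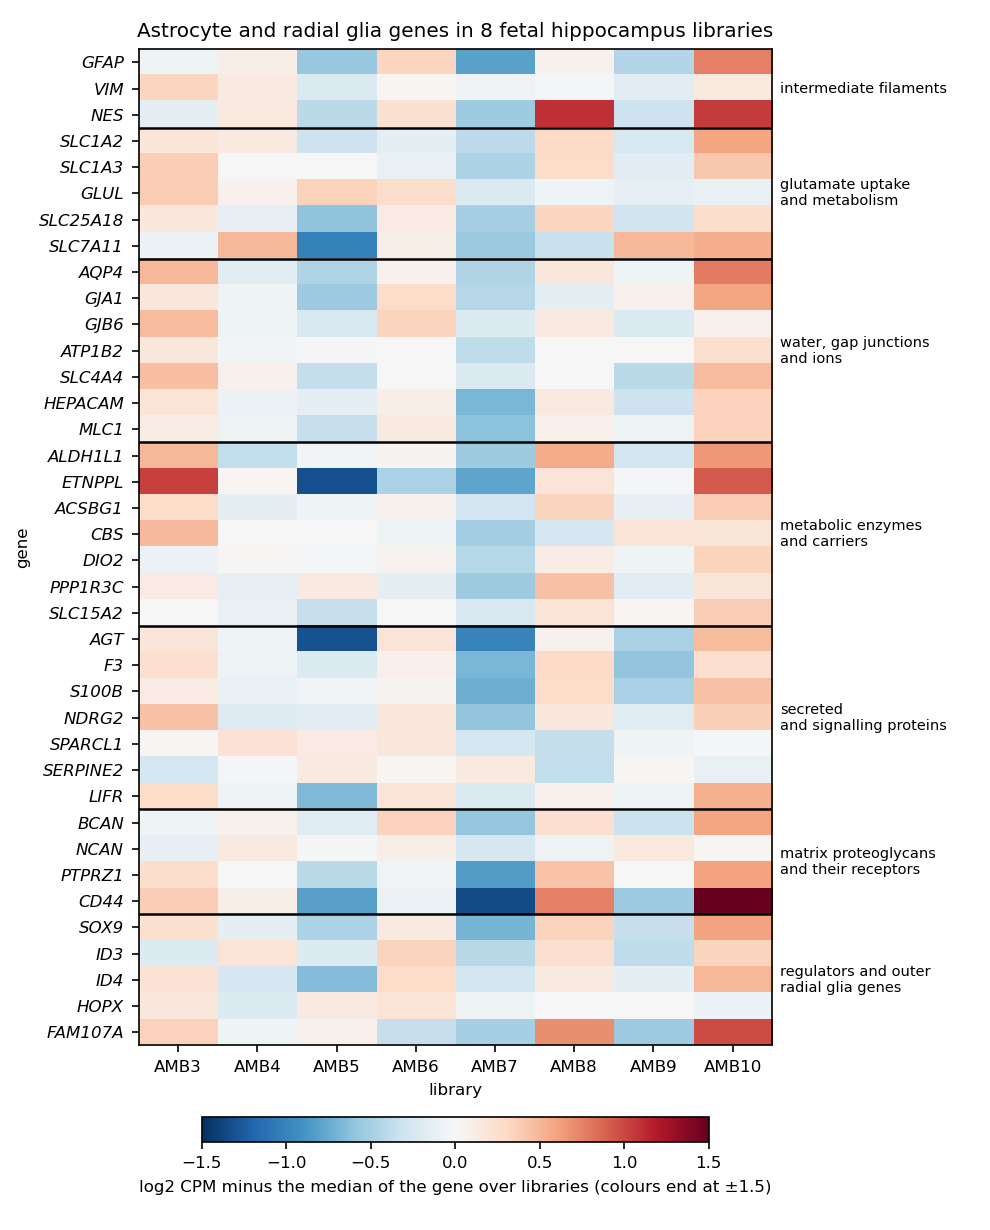
Each row is a gene, each column a library, and colour is log2 CPM minus the median of the gene over the 8 libraries, with colours ending at 1.5 in either direction. Most rows are blue in AMB7 and red in AMB10, whereas GLUL, SPARCL1, SERPINE2, NCAN and HOPX have other patterns.

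The intermediate filaments of the glial cytoskeleton differed in how far they ranged. GFAP, the filament of astrocytes (chromosome 17, 51723079 to 51734689), stood at 916 CPM in AMB3, 1023 in AMB4, 646 in AMB5, 1196 in AMB6, 552 in AMB7, 1004 in AMB8, 707 in AMB9 and 1613 in AMB10. AMB10 stood well above the next library, AMB6, and the 3 low libraries were AMB7, AMB5 and AMB9. The log2 range of 1.55 exceeded that of 83.4% of all tested genes and came to 1.11 without AMB10. VIM, vimentin (chromosome 11, 108808302 to 108816837), was far more even, with 244 CPM in AMB3, 215 in AMB4, 168 in AMB5, 200.2 in AMB6, 189.7 in AMB7, 192 in AMB8, 175 in AMB9 and 217 in AMB10. NES, nestin, a filament of neural progenitors (chromosome 1, 127386424 to 127395040), was at 38.6 CPM in AMB3, 47.5 in AMB4, 32.4 in AMB5, 50.4 in AMB6, 29.7 in AMB7, 91.8 in AMB8, 34.4 in AMB9 and 88.4 in AMB10. AMB8 and AMB10 thus formed a pair far above the other libraries, none of which exceeded 50.4 CPM. Vimentin and nestin are also made by endothelial and meningeal cells.

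Because both genes of a ratio are counted in the same library, ratios do not depend on how libraries are scaled, and only their differences between libraries are read here. There were 7.43 GFAP counts for each VIM count in AMB10, 5.97 in AMB6 and 2.91 in AMB7, a 2.55-fold difference between the extremes. The ratio of NES to VIM was 0.478 in AMB8 and 0.407 in AMB10 and lay between 0.156 and 0.252 in the other libraries.

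Among the genes of glutamate handling, both uptake transporters were lowest in AMB7 and highest in AMB10. SLC1A2, the main glutamate transporter of mature astrocytes (chromosome 12, 94622828 to 94793888), had 1711 CPM in AMB3, 1667 in AMB4, 1216 in AMB5, 1372 in AMB6, 1151 in AMB7, 1847 in AMB8, 1278 in AMB9 and 2272 in AMB10. SLC1A3, the transporter that radial glia and early astrocytes also carry (chromosome 5, 35422773 to 35506907), had 974 CPM in AMB3, 760.1 in AMB4, 752 in AMB5, 699 in AMB6, 541 in AMB7, 920.4 in AMB8, 675 in AMB9 and 1002 in AMB10. Their log2 ranges were 0.98 and 0.89, and that of SLC1A3 came to 0.57 without AMB7. The ratio of SLC1A2 to SLC1A3 counts stayed between 1.62 in AMB5 and 2.27 in AMB10.

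SLC25A18, a glutamate carrier of the inner mitochondrial membrane, ranged from 50.9 CPM in AMB5 to 95.7 in AMB8. GLUL, glutamine synthetase, which turns glutamate into glutamine in astrocytes and also in oligodendrocytes, did not follow the transporters. It was highest in AMB3 with 862 CPM, AMB5 with 839 and AMB6 with 793, and lowest in AMB7 with 573, AMB9 with 609 and AMB10 with 618. SLC7A11, the subunit of the cystine-glutamate exchanger, was the most thinly counted of the 38, with 7.03 CPM in AMB3, 10.6 in AMB4, 3.71 in AMB5, 7.98 in AMB6, 5.07 in AMB7, 5.94 in AMB8, 10.6 in AMB9 and 11.0 in AMB10. AMB4, AMB9 and AMB10 did not differ beyond counting error (95% Poisson intervals of 9.79 to 11.4, 9.62 to 11.7 and 10.2 to 11.8 CPM). The lowest library, AMB5, had an interval of 3.16 to 4.33 CPM that lay below all others.

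**Figure D2:**
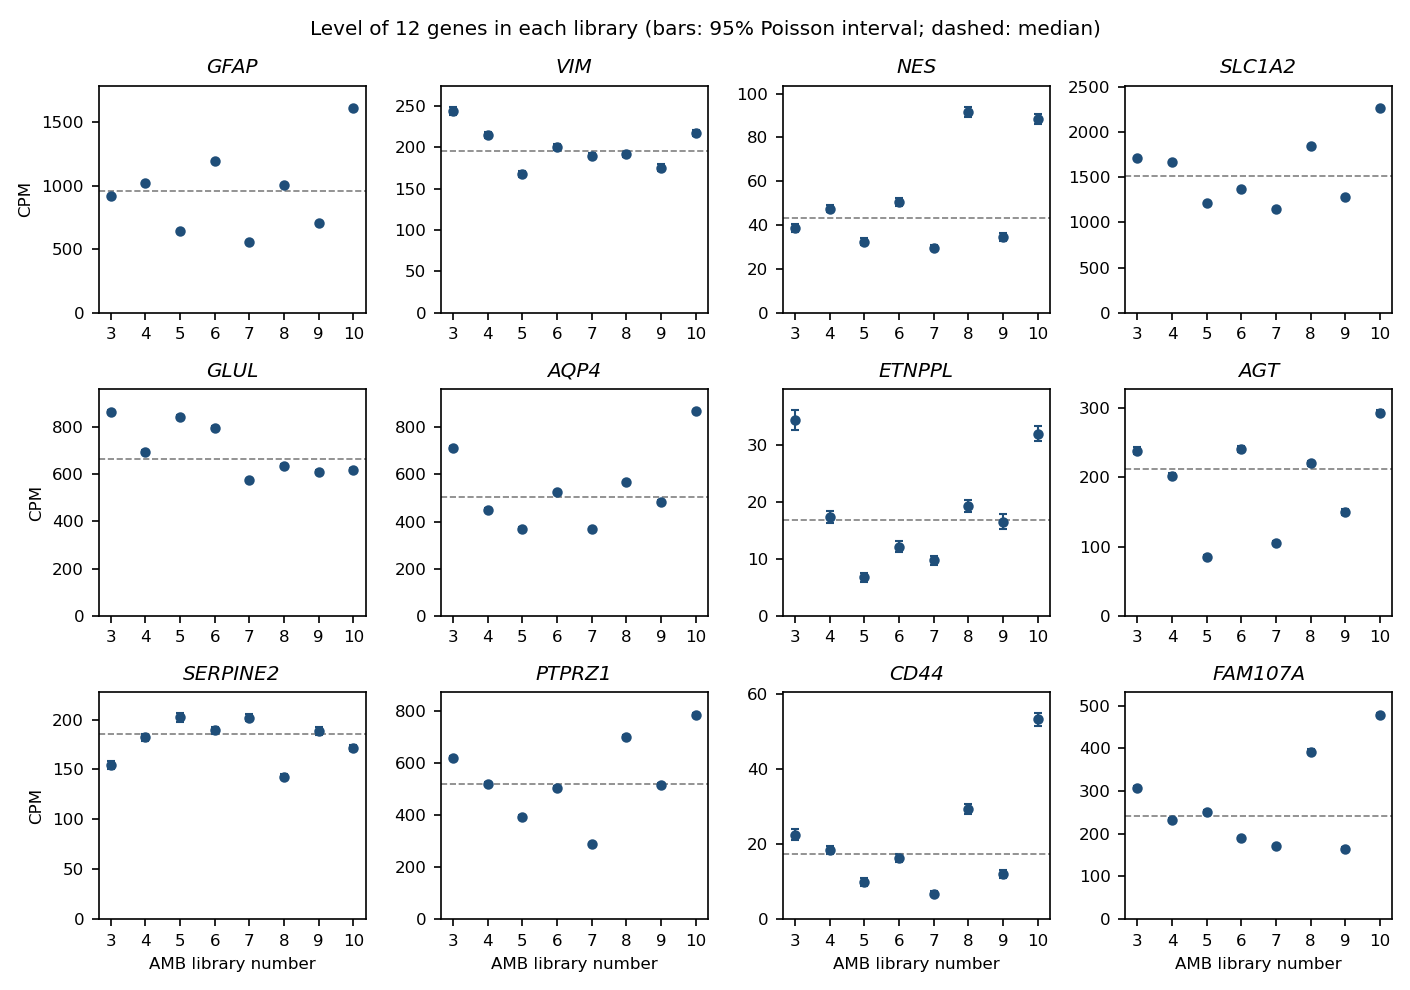
Points are the CPM of 12 genes in each library, named by its AMB number on the horizontal axis, bars are 95% Poisson intervals and the dashed line is the median over the 8 libraries. GFAP reaches 1613 CPM in AMB10 and 552 in AMB7, NES stands apart in AMB8 and AMB10, and SERPINE2 and VIM stay in a narrow band.

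Genes of water, gap junctions and ion transport kept a like order of libraries. The median Spearman rho over the 21 pairs of these 7 genes was 0.76, and no pair had a rho below 0.60. Over all 703 pairs of the 38 genes it was 0.67, and over all pairs of tested genes 0.00. These coefficients describe rank order over 8 libraries that share the same scaling, and no p is attached to them. AQP4, the water channel of astrocyte endfeet (chromosome 19, 18954544 to 18968333), was at 713 CPM in AMB3, 451 in AMB4, 369.7 in AMB5, 524 in AMB6, 368 in AMB7, 566 in AMB8, 484 in AMB9 and 867 in AMB10. AMB5 and AMB7 were level within counting error, with intervals of 364 to 375.5 and 363 to 372 CPM. GJA1, connexin 43 (chromosome 6, 141752031 to 141765675), was at 285 CPM in AMB3, 243 in AMB4, 173 in AMB5, 307 in AMB6, 187 in AMB7, 230.4 in AMB8, 263 in AMB9 and 381 in AMB10. Like AQP4 it was highest in AMB10, and its low libraries were AMB5 and AMB7.

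GJB6, connexin 30, the gap junction protein of mature astrocytes, ranged from 15.5 CPM in AMB5 to 25.6 in AMB3 and was at 19.1 in AMB10. The ratio of GJA1 to GJB6 counts was accordingly highest in AMB10, 1.79-fold above its lowest value, and was 16.8 in AMB9 and between 11.1 and 13.8 elsewhere. HEPACAM, an adhesion protein that escorts MLC1 to junctions, was at 201 CPM in AMB10 and 98.6 in AMB7, and MLC1, a membrane protein of perivascular endfeet, at 69.0 and 35.8 CPM in the same libraries. The bicarbonate cotransporter SLC4A4 ranged from 79.0 CPM in AMB9 to 145.3 in AMB10. ATP1B2, the beta subunit of the glial sodium pump, was at 96.4 CPM in AMB7 and between 122 and 148 in the other libraries. Without AMB7 its log2 range of 0.62 came to 0.27, and that of HEPACAM, 1.03 over all libraries, to 0.67.

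Metabolic enzymes and carriers held 1 of the 2 genes of widest spread. ETNPPL, an enzyme that degrades phosphoethanolamine (chromosome 3, 80326649 to 80347390), was at 34.4 CPM in AMB3, 17.3 in AMB4, 6.78 in AMB5, 12.2 in AMB6, 9.74 in AMB7, 19.2 in AMB8, 16.5 in AMB9 and 32.0 in AMB10. AMB3 and AMB10 held the high end, with Poisson intervals of 32.6 to 36.2 and 30.7 to 33.3 CPM that touch, and AMB5 was 5.07-fold below AMB3. Its log2 range of 2.34 came to 1.82 without AMB5. DIO2, the deiodinase with which astrocytes make active thyroid hormone (chromosome 7, 26352519 to 26468499), was steadier, with 208.5 CPM in AMB3, 226 in AMB4, 219 in AMB5, 229 in AMB6, 165 in AMB7, 240.1 in AMB8, 212 in AMB9 and 278 in AMB10. Its log2 range was 0.75, and 0.42 without AMB7.

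ACSBG1, an acyl-CoA synthetase, was at 94.3 CPM in AMB3, 71.6 in AMB4, 75.0 in AMB5, 81.8 in AMB6, 64.2 in AMB7, 98.3 in AMB8, 72.1 in AMB9 and 102.2 in AMB10. ALDH1L1, a folate enzyme widely used to mark astrocytes, had 21.6 CPM in AMB3, 22.4 in AMB8 and 23.8 in AMB10, and between 10.6 and 15.7 in the other libraries. Over the 8 libraries ALDH1L1 and ACSBG1 had the same rank order. PPP1R3C, which directs a phosphatase to glycogen, was highest in AMB8 with 47.6 CPM and lowest in AMB7 with 24.3, a log2 range of 0.97 that came to 0.60 without AMB7. CBS, the first enzyme of transsulfuration, ranged from 19.96 CPM in AMB7 to 40.02 in AMB3. The peptide transporter SLC15A2 ranged from 39.6 CPM in AMB5 to 64.7 in AMB10.

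Secreted and signalling proteins included genes that followed the common pattern and 2 that did not. AGT, angiotensinogen, which astrocytes secrete in the brain (chromosome 1, 200114352 to 200126770), was at 239 CPM in AMB3, 202 in AMB4, 85.4 in AMB5, 241 in AMB6, 106 in AMB7, 221 in AMB8, 149.9 in AMB9 and 294 in AMB10. AMB5 and AMB7 stood apart at the low end, and the log2 range was 1.78. NDRG2, a cytoplasmic protein abundant in astrocytes (chromosome 7, 85461332 to 85470551), was at 535 CPM in AMB3, 344 in AMB4, 353 in AMB5, 439 in AMB6, 262 in AMB7, 444 in AMB8, 347 in AMB9 and 505 in AMB10. Its log2 range of 1.03 came to 0.64 without AMB7.

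The calcium-binding protein S100B was at 163 CPM in AMB10 and 71.9 in AMB7, and F3, tissue factor, at 20.6 CPM in AMB8 and 10.4 in AMB7. LIFR, the receptor through which leukaemia inhibitory factor promotes astrocyte fate, ranged from 27.1 CPM in AMB5 to 61.8 in AMB10, a log2 range of 1.19 that came to 0.73 without AMB5. SPARCL1, hevin, a synapse-organizing protein of astrocytes that vessels and neurons also make (chromosome 3, 131490884 to 131549279), was at 1057 CPM in AMB3, 1206 in AMB4, 1128 in AMB5, 1166 in AMB6, 864 in AMB7, 807 in AMB8, 989 in AMB9 and 1017 in AMB10. It was lowest in AMB8 and highest in AMB4. SERPINE2, a secreted inhibitor of thrombin (chromosome 10, 107751381 to 107816873), ran against most of the others, with 202 CPM in both AMB5 and AMB7 and 143 in AMB8. Its rank order was opposed to that of 34 of the other 37 genes, with a median Spearman rho of -0.64 over them.

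Among the matrix proteoglycans and their receptors, CD44 had the widest spread of all 38 genes. CD44, the hyaluronan receptor of astrocyte precursors and of many other cells (chromosome 12, 94512484 to 94604108), was at 22.5 CPM in AMB3, 18.5 in AMB4, 9.87 in AMB5, 16.3 in AMB6, 6.81 in AMB7, 29.2 in AMB8, 11.9 in AMB9 and 53.2 in AMB10. AMB10 was 7.81-fold above AMB7, and the log2 range of 2.96 came to 2.10 without AMB10. PTPRZ1, a receptor phosphatase of radial glia (chromosome 4, 36619956 to 36813393), was at 618 CPM in AMB3, 519 in AMB4, 392 in AMB5, 503 in AMB6, 289.9 in AMB7, 699.7 in AMB8, 516 in AMB9 and 784 in AMB10. BCAN, brevican, ranged from 246 CPM in AMB7 to 552 in AMB10.

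NCAN, neurocan, a hyaluronan-binding proteoglycan that neurons secrete as well (chromosome 20, 32805632 to 32845643), had the smallest log2 range of the 38, 0.41. It was at 848 CPM in AMB3, 1010.0 in AMB4, 907 in AMB5, 981 in AMB6, 776 in AMB7, 892 in AMB8, 1028 in AMB9 and 943 in AMB10. The ratio of BCAN to NCAN counts therefore differed 2.04-fold, from 0.287 in AMB9 and 0.317 in AMB7 to 0.586 in AMB10. PTPRZ1, BCAN and NCAN are transcribed by oligodendrocyte precursors too. On the chromosomes, BCAN lies 9700 bases from NES and CD44 lies 18719 bases from SLC1A2. The gene models do not overlap, and no gene that overlaps any of the 38 had more than 3.43 CPM in any library.

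The regulators and the genes of outer radial glia, the progenitors that move away from the ventricle, split into variable and even ones. FAM107A, an actin-associated protein that marks outer radial glia and later astrocytes (chromosome 2, 81642851 to 81706616), was at 307 CPM in AMB3, 232 in AMB4, 251 in AMB5, 189 in AMB6, 171 in AMB7, 393 in AMB8, 165 in AMB9 and 478 in AMB10. HOPX, a homeodomain protein of the same cells (chromosome 3, 100838898 to 100872809), was at 122 CPM in AMB3, 93.6 in AMB4, 119 in AMB5, 125 in AMB6, 103 in AMB7, 108 in AMB8, 109 in AMB9 and 102.1 in AMB10. The ratio of FAM107A to HOPX counts was 4.68 in AMB10 and 3.64 in AMB8, and between 1.51 and 2.51 elsewhere.

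SOX9, the transcription factor that starts gliogenesis, ranged from 29.5 CPM in AMB7 to 72.6 in AMB10. ID3 and ID4 encode inhibitors of basic helix-loop-helix factors that hold progenitors back from neuronal fate. ID4 ranged from 51.2 CPM in AMB5 to 113.5 in AMB10, a log2 range of 1.15 that came to 0.77 without AMB5. ID3 was at 32.7 CPM in AMB6 and 32.6 in AMB10, level within counting error, and at 19.4 in AMB7 and 19.9 in AMB9. Vessels and other cells transcribe ID3 as well.

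**Figure D3:**
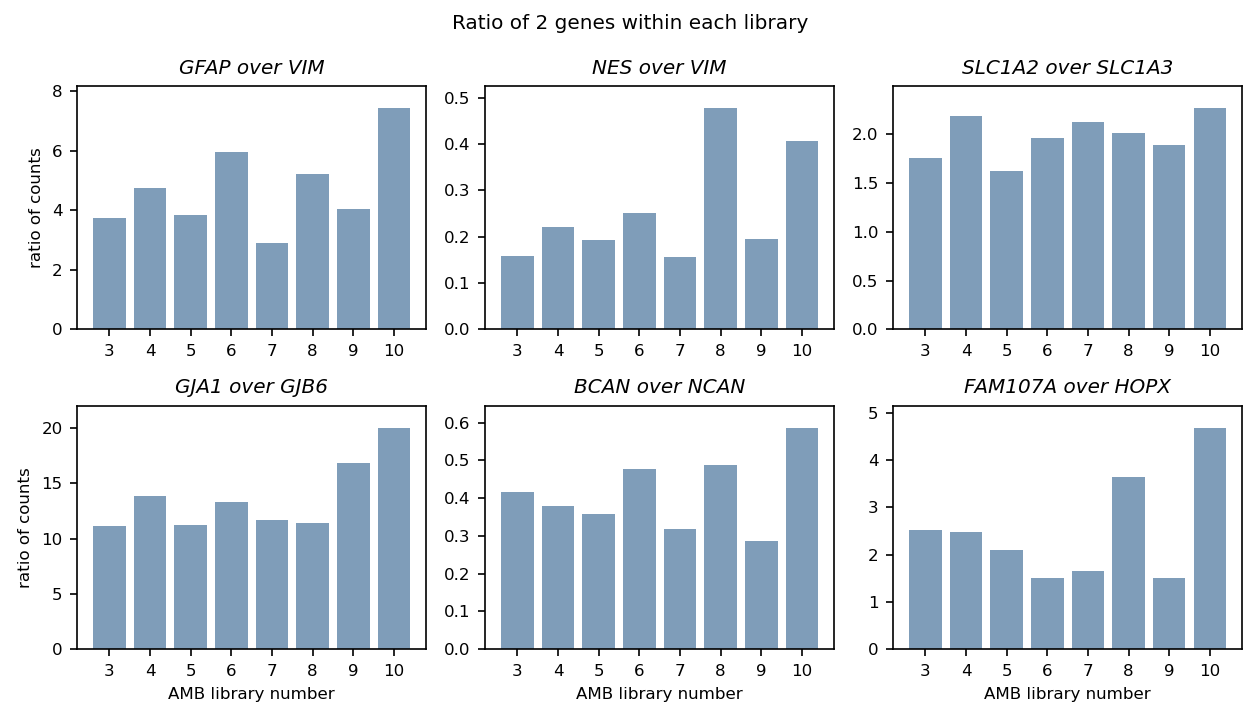
Bars are the ratio of the counts of 2 genes within each library, on axes that start at 0, with the AMB number of the library on the horizontal axis. GFAP over VIM, BCAN over NCAN, GJA1 over GJB6 and FAM107A over HOPX are highest in AMB10, NES over VIM is highest in AMB8, and SLC1A2 over SLC1A3 stays between 1.62 and 2.27.

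A log2 range of at least 1 was found in 19 of the 38 genes, 50%, against 36.1% of all tested genes. Without AMB10 it was found in 11 of the 38 genes, a share below the 32.2% of the genes tested then. The higher share in the 38 genes thus did not hold without AMB10. A range of at least 2 was found in 2 of the 38, CD44 and ETNPPL, against 9.0% of all tested genes. With all 8 libraries, AMB10 included, the median log2 range was 0.99 in the 38 genes and 0.77 in all tested genes. At the even end stood NCAN with 0.41, HOPX with 0.42, SERPINE2 with 0.50, VIM with 0.54, SPARCL1 with 0.58 and GLUL with 0.59. The range of NCAN exceeded that of 14.9% of all tested genes, and the range of GLUL that of 34.4%.

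**Figure D4:**
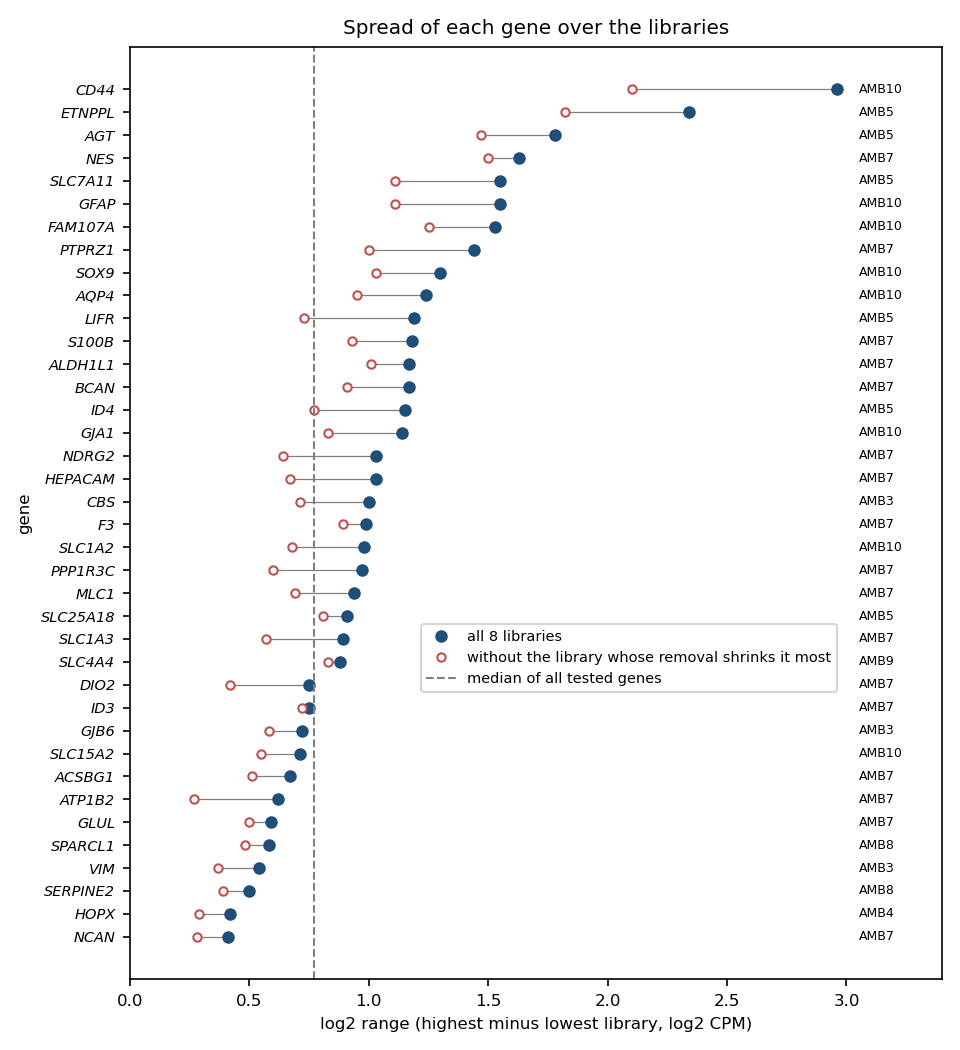
Filled points are the log2 range of each gene over all 8 libraries, open points the range without the library, named at the right, whose removal shrinks it most, and the dashed line is the median of all tested genes, 0.77. CD44 and ETNPPL exceed 2 with all libraries, and the range of ATP1B2 shrinks from 0.62 to 0.27 without AMB7.

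Correlations over the 8 libraries were computed for gene pairs of a shared complex, family or cell state, and for GFAP with MBP, a gene of another cell type. Of these pairs 3 passed the adjusted threshold of 0.05 by Pearson's r and 2 by Spearman's rho. Of 12 such pairs 11 could be computed, since SOX2 had no row, and p-values are exact 2-sided permutation values over all pairings of the libraries, adjusted over the 11 pairs by the Benjamini-Hochberg method. Each r without 2 libraries leaves out those farthest from the median of the first gene named in the pair. The labels do not say that the libraries come from different fetuses, which the permutation tests take for granted. The pairs were also chosen with earlier results of these data known. Over all 703 pairs of the listed astrocyte and radial glia genes the median Spearman rho was 0.67. These p-values therefore cannot tell a relation within a complex, family or cell state from the order of libraries that most of these genes share. HEPACAM and MLC1 had Pearson's r = 0.91 (exact permutation p = 0.00208, adjusted p = 0.0229) and Spearman's rho = 0.90 (exact permutation p = 0.00456, adjusted p = 0.0251), and r = 0.67 without AMB7 and AMB10. SLC1A2 and SLC1A3 had r = 0.88 (exact permutation p = 0.00526, adjusted p = 0.0289) and rho = 0.90 (exact permutation p = 0.00456, adjusted p = 0.0251), and r = 0.79 without the same libraries. GFAP and SLC1A2 had r = 0.85 (exact permutation p = 0.00843, adjusted p = 0.0309), while rho was 0.79 (exact permutation p = 0.0279, adjusted p = 0.101). Their r was 0.60 without AMB7 and AMB10. Each of these 3 relations lost its call by r when 1 library was left out. HEPACAM and MLC1 had an adjusted exact permutation p of 0.0644 without AMB10, 0.0513 without AMB4 and 0.111 without AMB7. SLC1A2 and SLC1A3 had 0.0644, 0.0513 and 0.111 without the same libraries and 0.0578 without AMB9. GFAP and SLC1A2 had 0.202 without AMB10 and 0.111 without AMB7, 0.0517 without AMB3, 0.064 without AMB4, 0.088 without AMB5 and 0.072 without AMB9.

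The remaining pairs did not pass the adjusted threshold of 0.05. GFAP and MBP, myelin basic protein of oligodendrocytes, had r = 0.70 (exact permutation p = 0.0548, adjusted p = 0.151) and rho = 0.71 (exact permutation p = 0.0576, adjusted p = 0.127), and r = 0.65 without AMB7 and AMB10. SLC1A2 and GLUL had r = -0.07 (exact permutation p = 0.866, adjusted p = 0.866) and rho = 0.19 (exact permutation p = 0.665, adjusted p = 0.703), and r = -0.16 without the same libraries. FAM107A and HOPX had r = -0.11 (exact permutation p = 0.787, adjusted p = 0.866) and rho = -0.17 (exact permutation p = 0.703, adjusted p = 0.703), and r = 0.29 without AMB8 and AMB10. GFAP and VIM had r = 0.58 (exact permutation p = 0.134, adjusted p = 0.215) and rho = 0.67 (exact permutation p = 0.0831, adjusted p = 0.152), and r = 0.61 without AMB7 and AMB10. For GJA1 and GJB6 r was 0.58 (exact permutation p = 0.137, adjusted p = 0.215) and rho 0.62 (exact permutation p = 0.115, adjusted p = 0.181), with r = 0.67 after 2 libraries were left out. For BCAN and NCAN r was 0.42 (exact permutation p = 0.299, adjusted p = 0.411) and rho 0.24 (exact permutation p = 0.582, adjusted p = 0.703), with r = -0.10 after 2 were left out. For VIM and NES r was 0.31 (exact permutation p = 0.446, adjusted p = 0.545) and rho 0.52 (exact permutation p = 0.197, adjusted p = 0.27), with r = 0.51 without AMB3 and AMB5. That last value still includes AMB8 and AMB10, where NES stood far above the other libraries. No r is given for ID3 and ID4, because ID3 fell into separate clusters of libraries, at 22.6 CPM or less and at 29.8 CPM or more. Pooled over these clusters, rho was 0.76 (exact permutation p = 0.0368, adjusted p = 0.101).

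Other genes of the same cells were listed apart from the 38. As a list, further astrocyte genes had the same extreme libraries, whereas those of radial glia shared only the low one, AMB7. These lists were chosen with earlier results of these data known, so they describe the pattern and do not test it. Of 24 further astrocyte genes 22 had a row and were tested, and AMB7 was the lowest library of 15 and AMB10 the highest of 13, against 15.1% and 16.7% of all tested genes. CPE, carboxypeptidase E, was at 1700.0 CPM in AMB10, 1684 in AMB8, 1677 in AMB3 and 843 in AMB7. Not all of the 22 followed this order. PEA15 was lowest in AMB7 with 489 CPM but highest in AMB5 with 782, against 706 in AMB10. SLC6A11 ran the other way, with 168 CPM in AMB7, its highest library, and 80.2 in AMB10. A range of at least 1 was found in 13 of these 22 genes, against 36.1% of all tested genes. WIF1, a secreted Wnt inhibitor, had the widest, from 10.01 CPM in AMB7 to 65.74 in AMB10. Of 18 further genes of radial glia and early glia, AMB7 was the lowest library of 10, against 15.1% of all tested genes, and AMB10 the highest of 5, against 16.7%. Their median deviation was highest in AMB8 with 0.38, against 0.26 in AMB10, and lowest in AMB7 with -0.48. NFIB, a transcription factor of gliogenesis, was between 124 and 182 CPM in 6 libraries, at 283 in AMB8 and at 267 in AMB10. SLC35F1 was lowest in AMB8 with 144 CPM, and FBXO32, a ubiquitin ligase subunit, lay between 63.8 and 112 CPM in 5 libraries and at 11.56 in AMB3, 12.04 in AMB8 and 17.3 in AMB10.

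Markers of other cells moved with the 38 genes in part. All 8 tested precursor markers of oligodendrocytes, of 9 listed, were lowest in AMB7, against 15.1% of all tested genes, and 5 were highest in AMB10, against 16.7%, with none at 0 in any library and a summed level between 254 CPM in AMB7 and 709 in AMB10. All 11 myelin markers were highest in AMB10, against the same 16.7%, with a summed level of 5138 CPM there, 4222 in AMB4, 2870 in AMB8 and 805 to 1943 elsewhere. They were lowest in AMB3 and AMB5 and not in AMB7. The 9 markers of meninges and fibroblasts had their highest sum, 806 CPM, in AMB7, and lay between 195 and 654 CPM in the other libraries. The 9 endothelial markers summed to 223 CPM in AMB7 and up to 318 in AMB4, and the 7 of pericytes and smooth muscle to between 161 CPM in AMB8 and 442 in AMB4. Of these 7, ACTA2, TAGLN and MYH11 were highest in AMB4, against 7.3% of all tested genes, with 128.5, 80.7 and 59.05 CPM. PDGFRB, RGS5 and NOTCH3 were highest in AMB10, against 16.7%, and KCNJ8 in AMB5. The median deviation of the 7 was 0.28 in AMB10, its highest value, and 0.09 in AMB4. No marker of these 5 lists was at 0 in any library.

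Microglia markers, 8 of 9 with a row, summed to 88.4 CPM in AMB8 and 184 in AMB6, and excitatory neuron markers, 6 of 6, to 2979 CPM in AMB3 and 4516 in AMB8. Interneuron markers, 7 of 7, summed to 317 CPM in AMB8, 462 in AMB10 and 562 to 744 elsewhere. Of 8 markers of ependyma and choroid plexus 4 were tested, the sum lay between 136 CPM in AMB4 and 185 in AMB10, and TTR, KCNJ13 and CCDC153 had no count in at least 1 library. FOXJ1, from 115 CPM in AMB4 to 148 in AMB5, made up most of each sum. Other tested markers of this list varied more, PIFO from 0.23 CPM in AMB5 to 14.6 in AMB10 and AQP1 from 0.49 in AMB3 to 22.1 in AMB6. Mitochondrially encoded genes took 2.25% of the counts in AMB7 and 2.79% to 3.37% in the other libraries. AMB7 and AMB10 were the 2 deepest libraries, with 70629544 and 71648654 counts. The part of oligodendrocyte precursors, meninges or mitochondrial share in the levels of the 38 genes was not tested.

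**Figure D5:**
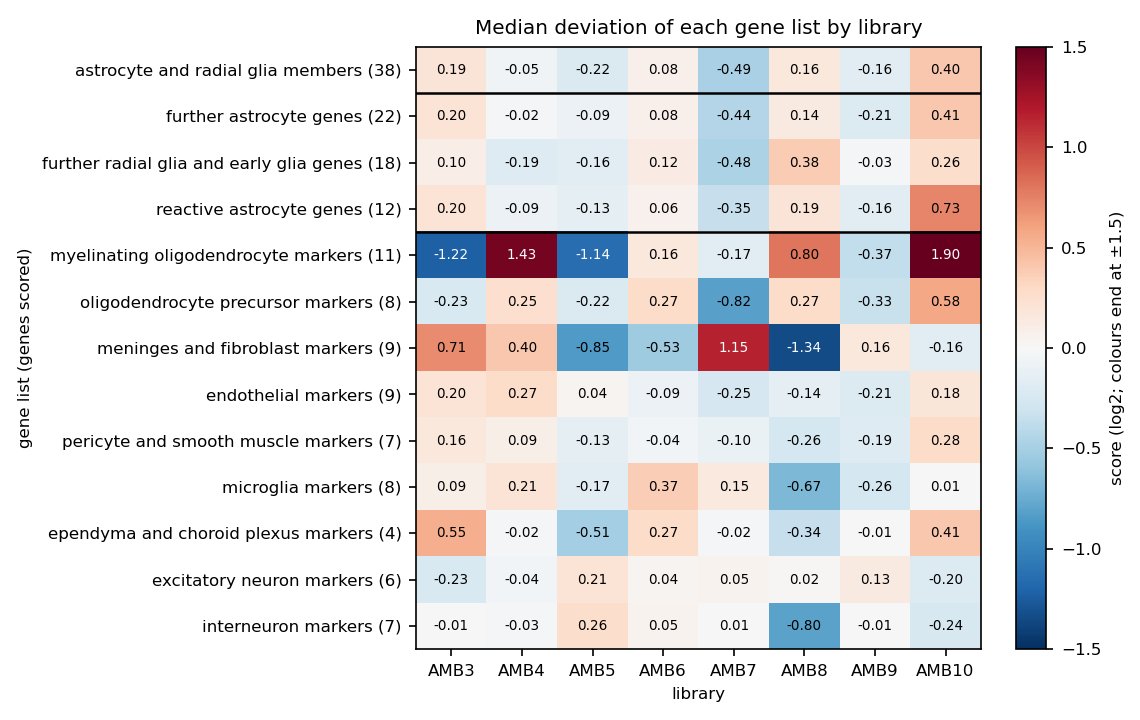
Each cell is the median over the tested genes of a list of log2 CPM minus the gene's own median, by library, with the number of genes scored in brackets and colours ending at 1.5 in either direction. The 38 genes and the further astrocyte genes are lowest in AMB7 and highest in AMB10, precursor markers of oligodendrocytes share both extremes, and meningeal markers are highest in AMB7.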

How the data were processed

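For each library the deposited table has a raw and a normalized column, per the file headers. The deposited raw values are estimated counts with fractions, assigned to RefSeq genes, and were rounded to whole numbers. Normalized values were deposited as log2, and their median over AMB3, AMB8 and AMB10 was 0 within 1e-05 in 100% of the 15582 genes above 20 raw counts in every library. DESeq, with no version, is named per the submitters' processing notes. Aligner, counter, genome build and use of strand in counting: not given in the sources used here.

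Genes were kept by filterByExpr in edgeR 4.0.16 (minimum count 10, no groups), library sizes over the genes kept were corrected by trimmed means of M-values, and log2 CPM used a prior count of 2. Scaling and ranges were also run on simulated counts with counting error alone, in which chosen genes were changed in 1 library each. That simulation holds no other spread between libraries, so it checks the calculation only. Permutation tests enumerated every pairing of the libraries with numpy 2.4.6, and scipy 1.17.1 gave the ranks and the adjusted p-values. Alternatives were DESeq2 1.42.0 size factors, total counts alone, the deposited log2 values, a prior count of 0.5, no filter, a mean in place of the median score, and each library left out. Values in all libraries are given for the 1 or 2 genes of highest median and the 1 of widest range in each of 7 roles, and for related lists the 3 of highest median and the 1 of widest range were eligible. SLC6A11 was named outside this rule because it ran against its list. Members, lists and pairs were chosen with earlier results of these data known.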

Additional observations from a re-analysis of the deposited data

Results flagged for a closer look

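One library stood far from the others in 1 of 46 series of values examined, the 38 genes, their common score and the scores of 7 roles. ATP1B2 was at 96.4 CPM in AMB7 and between 122 and 148 CPM in the other 7 libraries, and the gap from AMB7 to the next library was 0.555 of the whole log2 range, above Dixon's 95% critical value for 8 values. Chance gives such a gap in about 1 in 20 groups, and the libraries are not known to belong to 1 group.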

How the results depend on the processing

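No scaling, filter, prior count or use of the deposited log2 values moved a log2 range by more than 1 SD. Nor did any of them change which gene pairs passed the adjusted threshold by r, while counts of genes moved slightly. Over these settings a range of 1 or more was found in 18 to 19 genes and of 2 or more in 2, AMB7 was lowest in 20 to 23 and AMB10 highest in 23 to 24, and the range of the common score was 0.86 to 0.91 (0.88 as reported). Leaving out each library in turn gave 11 to 19 genes with a range of at least 1 (11 without AMB10, 14 without AMB7), 1 to 2 with at least 2 (1 without AMB5), 22 to 31 lowest in AMB7, 23 to 27 highest in AMB10 and a score range of 0.68 to 0.89. The ranges of 8 genes moved by more than 1 SD without a library. With 7 libraries the adjusted p of r lay between 0.00873 and 0.111 for HEPACAM and MLC1 (r of 0.80 to 0.96, past the threshold in 5 of 8), between 0.0327 and 0.111 for SLC1A2 and SLC1A3 (r of 0.84 to 0.93, 4 of 8), and between 0.00873 and 0.202 for GFAP and SLC1A2 (r of 0.73 to 0.98, 2 of 8), where fewer libraries also leave fewer pairings. Without a filter 45.2% of the genes tested had a range of at least 1. No paired analysis was possible because the labels give no groups. Depth limits SLC7A11 most.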

Other observations

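Of 17 listed genes that astrocytes raise in injury, 16 had a row and 12 were tested, and the median deviation was highest in AMB10 with 0.73 and lowest in AMB7 with -0.35. AMB10 was the highest library of 8 of the 12, against 16.7% of all tested genes. SERPINA3, a secreted protease inhibitor, was at 4.02 CPM in AMB3, 3.75 in AMB8 and 4.25 in AMB10, at 2.33 in AMB6 and between 0.238 and 0.853 in the others. CRYAB, a small heat shock protein that oligodendrocytes also make, ranged from 7.70 CPM in AMB5 to 61.8 in AMB10, with 48.4 in AMB8. STAT3, the transcription factor of astrocyte reactivity, lay between 57.9 and 67.8 CPM, a log2 range of 0.23. LCN2, STEAP4, CP and CXCL10 did not pass the filter, and STEAP4, CP and CXCL10 had no count in at least 1 library.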
